A study of Mus musculus with 24 samples.

Results

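The 9 genes described here, the p53 family and the DNA damage checkpoint kinases, were measured in single ovulated mouse oocytes: the transcription factors Trp63, Trp53 and Trp73, their inhibitors Mdm2 and Mdm4, and the kinases Atm, Atr, Chek1 and Chek2. They were chosen by symbol and are 9 of the 25965 entries of the deposited table. The study asked whether an excess of anti-Müllerian hormone (AMH), a hormone of growing follicles, alters the transcripts of the oocyte. Transgenic females were Thy1.2-AMHTg/0, hemizygous for an AMH transgene driven by the neuronal Thy1.2 promoter, and the other females were wild type without the transgene. The labels give all females as adult, without a strain or an age in weeks, and all oocytes as naturally ovulated, freed of cumulus cells and zona, and lysed one by one. Values of 10 transgenic and 11 wild-type oocytes were analysed. Of each genotype 4 females gave 2 or 3 oocytes apiece, and a sequencing lane always carried 1 transgenic and 1 wild-type female (4 lanes). The female is the replicate (n = 4 per genotype).

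The p53 family reads DNA damage out as gene expression. ATM is activated by double-strand breaks and ATR by single-stranded DNA at stalled forks. They chiefly phosphorylate CHK2 and CHK1, respectively, which hold the cell cycle by acting on CDC25 phosphatases and on p53 family proteins. MDM2 is the ubiquitin ligase that marks p53 for destruction and is itself a p53 target gene. MDM4 lacks effective ligase activity and blocks the transactivation domain of p53. In the mouse ovary the TAp63 form of p63 is the guardian of the resting oocyte: it is kept as an inactive dimer, is phosphorylated by CHK2 and casein kinase 1 after damage, and then activates Bbc3 (PUMA) and Pmaip1 (NOXA), which kill the oocyte. An ovulated oocyte is transcriptionally silent, so its messages are a store laid down during growth.

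Each value is a count of reads per 1000000 reads of the library (RPM). Libraries held 20441302 to 33341040 reads, so 3 reads stood for 0.0900 to 0.147 RPM, and 91.1% to 94.8% of reads lay in listed genes. All 10 oocyte markers had a median of at least 1 RPM, and their summed level was 12577 to 28402 RPM in the oocytes. None of 20 cumulus and granulosa markers had such a median. Their sum was 0 to 33.5 RPM per oocyte against 468 RPM in the control RNA supplied with the amplification kit, and Foxl2, Areg, Ereg and Pgr had no reads in any oocyte. Of 9 blood and immune markers 3 had such a median, Csf1r at 10.6, Laptm5 at 6.68 and Cd68 at 2.65 RPM, while Ptprc, Hba-a1, Hbb-b1 and Lyz2 had no reads. That list summed to 11.8 to 31.1 RPM per oocyte, with 20.0 ± 1.04 RPM over transgenic females and 21.0 ± 4.59 RPM over wild-type females (SD, n = 4; exact permutation test, two-sided, p = 0.743). The cumulus and granulosa sum averaged 1.83 ± 0.934 RPM over transgenic females and 4.49 ± 5.45 RPM over wild-type females (SD, n = 4). Its exact permutation test over 70 arrangements, two-sided, gave p = 0.514. The wild-type mean rests on the female of lane 2 at 12.6 RPM, without which the transgenic mean was higher by 0.0416 RPM. In a single oocyte, fewer molecules of 1 message and more of all others cannot be told apart, since RPM is a share.

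The pathway was unevenly stocked. Chek1 and Mdm4 were among the most abundant messages of the oocyte. Chek2 and Atm were near the bottom of the genes that averaged 1 RPM or more, and so was Atr when merged exons gave its length. Divided by the length of the merged exons, Chek1 stood at 318 ± 34.7 RPM per kb (SD, n = 21 oocytes). It ranked 137th of the 10886 genes with a length that averaged 1 RPM or more, and entries below that level were not ranked. Mdm4 stood at 144 ± 37.1 RPM per kb, Mdm2 at 51.6 ± 11.1 and Trp53 at 20.2 ± 2.76. Trp63 was mid-range at 3.70 ± 1.17 RPM per kb, 5551st in that order, and Trp73 followed at 1.49 ± 0.422. The large kinases Atm and Atr stood at 0.657 ± 0.285 and 0.582 ± 0.176 RPM per kb, and Chek2 at 0.350 ± 0.268, with 6.38% of the ranked genes below it. Female means of neighbours in this order did not overlap, except those of Atm with Atr and of Atr with Chek2, whose ranges did. The length used matters. Per kb of its principal transcript Atr stood at 1.70, above Trp73 at 1.63, while the other members kept their order. On that length Mdm4 stood at 301 and Mdm2 at 84.7 RPM per kb. Ranks among all genes were computed on merged exons only, so the low place of Atr holds for that length.

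**Figure D1:**
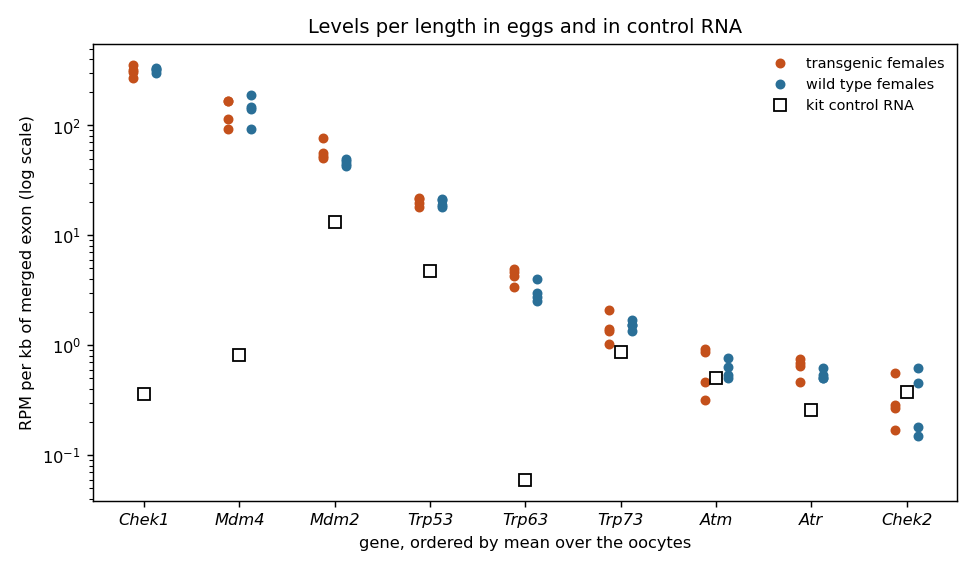
Level of each gene in RPM per kb of merged exon (log axis), by female and in the control RNA; points are means over the 2 or 3 oocytes of a female. Chek1 (mean 318) and Mdm4 (144) lie highest, Chek2 (0.350) lowest, and the females of Atm, Atr and Chek2 overlap.

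The upstream sequences of members at both ends of this order are shown, together with Mdm2, the member whose female means did not overlap between genotypes. RefSeq windows of 300 bases (GRCm38.p6; 250 before to 50 after a gene's annotated start) were found for 8 of the 9 members. Trp63 had no entry. The sequences read 5′ to 3′ in the sense of the gene. Capitals mark matches, on either strand, to the CCAAT box, to the GC box bound by SP1 with the letters GGGCGG, and to the TATA box with the letters TATAAA. They also mark the E2F letters GGCGGGAA, the E-box letters CACGTG and the CHR core of cell cycle genes with the letters TTTGAA. They are, in order, Chek1 (chr9:36726609-36726908, minus strand), Chek2 (chr5:110839733-110840032, plus strand), Mdm2 (chr10:117710709-117711008, minus strand) and the Mdm4 window nearest to the table's start (chr1:133025367-133025666, minus strand).
Chek1: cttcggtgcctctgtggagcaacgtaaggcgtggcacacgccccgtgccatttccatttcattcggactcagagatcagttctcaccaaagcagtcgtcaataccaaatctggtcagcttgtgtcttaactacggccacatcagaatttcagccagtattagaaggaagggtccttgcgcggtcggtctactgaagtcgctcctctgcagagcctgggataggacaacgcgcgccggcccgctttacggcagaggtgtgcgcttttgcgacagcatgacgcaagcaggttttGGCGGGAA
Chek2: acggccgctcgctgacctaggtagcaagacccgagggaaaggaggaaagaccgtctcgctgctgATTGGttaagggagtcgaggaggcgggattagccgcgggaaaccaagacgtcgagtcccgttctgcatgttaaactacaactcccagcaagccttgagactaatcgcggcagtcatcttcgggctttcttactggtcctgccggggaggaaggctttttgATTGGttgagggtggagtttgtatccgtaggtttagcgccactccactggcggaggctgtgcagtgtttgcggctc
Mdm2: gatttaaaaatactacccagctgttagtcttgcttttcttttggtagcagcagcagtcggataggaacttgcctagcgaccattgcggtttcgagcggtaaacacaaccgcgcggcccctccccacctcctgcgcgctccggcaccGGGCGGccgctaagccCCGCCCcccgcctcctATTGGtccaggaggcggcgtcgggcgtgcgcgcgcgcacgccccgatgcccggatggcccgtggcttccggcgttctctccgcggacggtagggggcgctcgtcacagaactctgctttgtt
Mdm4: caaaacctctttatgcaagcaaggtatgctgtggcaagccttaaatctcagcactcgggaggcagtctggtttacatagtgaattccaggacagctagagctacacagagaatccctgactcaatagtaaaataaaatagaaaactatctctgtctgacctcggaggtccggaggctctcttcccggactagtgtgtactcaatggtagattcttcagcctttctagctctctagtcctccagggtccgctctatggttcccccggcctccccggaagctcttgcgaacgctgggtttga
Chek1 held the E2F letters 43 bases after its start, a match found in 2.19% of all 32851 windows of this length. The annotated start of that window lay 407 bases from the gene's start in the table. The match was not particular to Chek1: Trp73, low in the order of levels, held 2 in the window nearest to its start in the table (not shown). Chek2 held 2 CCAAT matches (in 37.4% of windows). Mdm2 held 2 GC boxes (in 35.7%) and 1 CCAAT. The Mdm4 window held none of the motifs. The p53 response element, searched with up to 13 bases between its decamers, lay in 0.0731% of all windows and in none of the members' windows. At so low a share a match in these few windows was unlikely beforehand. Sequence outside the windows was not searched, so whether a member has such an element elsewhere is not known from this. GC content was 55.3% for Chek1, 56.7% for Chek2, 64.7% for Mdm2 and 49.7% for Mdm4, against a median of 52.7% over all windows.

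Trp63 (ENSMUSG00000022510, GRCm38 chr16:25683763-25892102, plus strand) encodes p63, and was detected in every oocyte. It ranged from 22.4 to 50.9 RPM with a median of 35.8 in the 10 transgenic oocytes, and from 16.7 to 43.3 RPM with a median of 27.0 in the 11 wild-type oocytes. The oocytes of the genotypes overlapped over most of this range, and each value rested on 352 to 1323 reads. In the control RNA Trp63 had 11 reads, 0.499 RPM (95% Poisson interval 0.249 to 0.893, counting error only), so that the lowest oocyte stood 33.4 times above it. The counts are per gene and cannot separate the TAp63 and ΔNp63 forms.

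Trp53 (ENSMUSG00000059552, chr11:69580359-69591873, plus strand) encodes p53. It was the most even of the transcription factors, at 71.7 to 100.1 RPM with a median of 80.7 in transgenic oocytes and 58.7 to 100.1 RPM with a median of 76.3 in wild-type oocytes. The ranges overlapped almost entirely. The entry of its pseudogene Trp53-ps never passed 0.339 RPM. Trp73 (ENSMUSG00000029026, chr4:154056253-154140208, minus strand) encodes p73, a family member with a known part in spindle integrity of the mouse oocyte. It stood at 4.13 to 15.1 RPM with a median of 7.79 in transgenic oocytes and at 6.11 to 10.6 RPM with a median of 8.21 in wild-type oocytes. Its highest value, 15.1 RPM, was oocyte C of the transgenic female of lane 1, the deepest library. Its exons overlap those of Trp73os on the other strand, and the sources used here do not say whether strand was kept.

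Mdm2 (ENSMUSG00000020184, chr10:117688888-117710758, minus strand) stood at 211 to 413 RPM with a median of 281 in transgenic oocytes and at 193 to 288 RPM with a median of 233 in wild-type oocytes. The 4 highest oocytes were transgenic, led by both oocytes of the female of lane 1 at 413 and 369 RPM. In the control RNA it stood at 67.6 RPM. Mdm4 (ENSMUSG00000054387, chr1:132989845-133025366, minus strand) was the more abundant inhibitor, at 1028 to 2821 RPM with a median of 2257 in transgenic oocytes and 1089 to 3047 RPM with a median of 2322 in wild-type oocytes. The lowest values were again oocyte C of the transgenic female of lane 1, at 1028 RPM, and oocyte B of the wild-type female of lane 4, at 1089 RPM. Control RNA contained Mdm4 at 12.0 RPM, and the lowest oocyte stood 85.8 times above that. The ratio of Mdm4 to Mdm2 in RPM ran from 2.49 in oocyte C of the transgenic female of lane 1 to 13.4 in oocyte C of the transgenic female of lane 3. Per kb of merged exon the ratio ran from 0.855 to 4.60. It depends on the length used: merged exons were 14.8 kb for Mdm4 and 5.08 kb for Mdm2, and principal transcripts 7.1 and 3.1 kb. The ratio in each oocyte was not computed on principal transcripts, so the value under 1 holds for merged exons only.

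Atm (ENSMUSG00000034218, chr9:53439149-53536740, minus strand) stood at 2.47 to 12.2 RPM with a median of 6.22 in transgenic oocytes and at 2.88 to 11.2 RPM with a median of 6.20 in wild-type oocytes. Atr (ENSMUSG00000032409, chr9:95857597-95951644, plus strand) stood at 6.32 to 20.8 RPM with a median of 14.7 and at 6.95 to 21.4 RPM with a median of 12.1. The genotypes overlapped for both apical kinases. Neither stood far above the control RNA, which held 5.17 RPM of Atm and 6.03 RPM of Atr. Atr exons overlap 2 genes on the other strand, of which 1700065D16Rik reached at most 1.23 RPM, and the small nuclear RNA gene Gm24004 on the same strand.

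The effector kinases were at the opposite ends of the members. Chek1 (ENSMUSG00000032113, chr9:36708482-36727065, minus strand), the ATR target CHK1, stood at 1010.35 to 1734 RPM with a median of 1469.6 in transgenic oocytes and at 1273 to 1675 RPM with a median of 1459.8 in wild-type oocytes. Each oocyte carried at least 27315 Chek1 reads, while the control RNA had 37 reads, 1.68 RPM (1.18 to 2.31), and the lowest oocyte stood 602 times above it. Chek2 (ENSMUSG00000029521, chr5:110840017-110874133, plus strand), the ATM target CHK2 that acts on TAp63, had 0 to 64 reads. It stood at 0 to 1.76 RPM with a median of 1.08 in transgenic oocytes and at 0 to 2.47 RPM with a median of 1.35 in wild-type oocytes. No read was found in 5 of 21 oocytes, 1 transgenic and 4 wild type. By counting error alone this allows up to 0.146 RPM in the shallowest of these libraries. Messages lost before sequencing are not part of that bound, so it does not cap the level in the cell. Sister libraries could differ: in the wild-type female of lane 1, oocyte A held the highest count of 64 reads and oocyte B none. The control RNA held 1.13 RPM of Chek2, with an interval of 0.734 to 1.67 that spans the oocyte mean of 1.05 RPM.

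**Figure D2:**
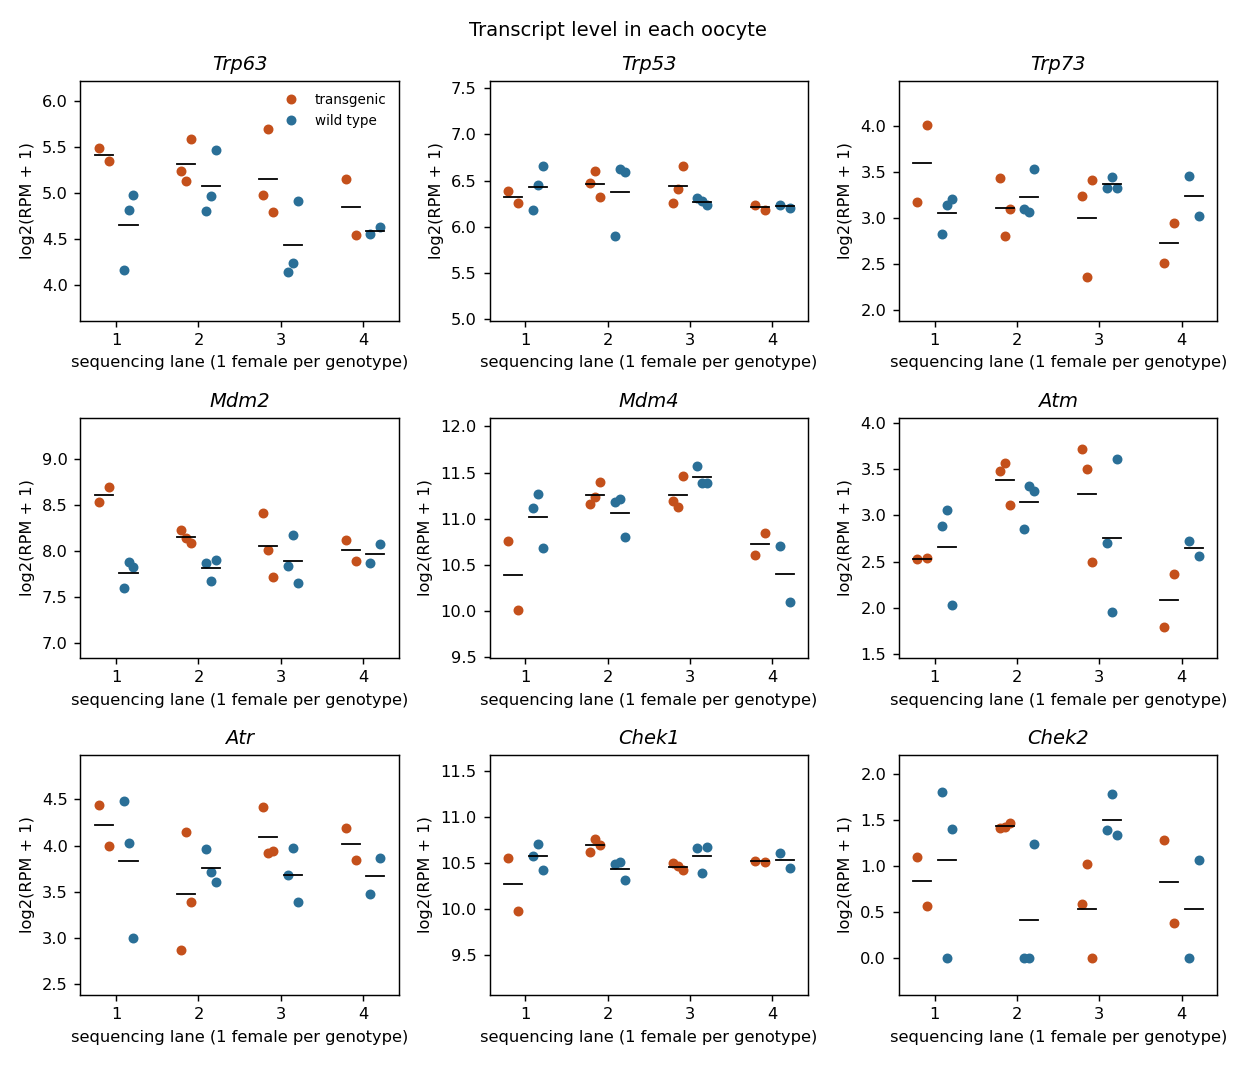
Level of each of the 9 genes, as log2(RPM + 1), by sequencing lane and genotype; each point is 1 oocyte, each bar the mean of a female, and every panel has its own axis range. Over all lanes the genotypes overlap for every gene at the level of single oocytes, and Chek2 is at 0 in 5 oocytes.

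Between the genotypes no member passed the threshold: 0 of 9 had an adjusted p under 0.05 (limma on female means of log2(RPM + 1), two-sided, Benjamini-Hochberg over 10987 genes). No gene of the whole table did either, a background of 0%, and the smallest adjusted p was 0.724. At an unadjusted p under 0.05 there were 2 of 9 members, Trp63 and Mdm2, beside 6.81% of all genes. Of 9 genes 2 is a small count, and the 9 were chosen with these results known. Estimates were above 0 in transgenic females for 6 members, beside 47.8% of all genes, and below 0 for 3, beside 52.2%. The median difference of the members was 0.03 on the log2 scale, beside -0.01 over all genes.

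Trp63 female means were 41.8, 39.3, 36.1 and 28.5 RPM in the transgenic females of lanes 1 to 4, and 24.95, 33.6, 21.3 and 23.2 RPM in the wild-type females. In each lane the transgenic female was higher, but the groups overlapped, since the transgenic female of lane 4 lay below the wild-type female of lane 2. The means were 36.4 ± 5.76 and 25.8 ± 5.42 RPM (SD, n = 4). On the log2 scale the difference was 0.49 ± 0.20 (SE; 95% interval 0.06 to 0.92; limma p = 0.0275, Benjamini-Hochberg adjusted p = 0.724). Lane by lane it was 0.76, 0.24, 0.72 and 0.26 on the log2 scale. All 4 lanes had the same sign for 18.3% of genes, and for 7.97% the transgenic female was higher in all of them. With 1 female left out at a time, the Trp63 difference ran from 0.409 to 0.624. Its limma p then ran from 0.0104, without the wild-type female of lane 2, to 0.0848, without that of lane 3.

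Mdm2 female means were 391, 285, 270.15 and 258 RPM in the transgenic females of lanes 1 to 4, and 218, 226, 239 and 251 RPM in the wild-type females. All 4 transgenic females lay above all 4 wild-type females, which no other member showed. Over all genes such a gap was found for 4.31% in either direction, 1.67% with the transgenic females higher and 2.64% with them lower. The margin was narrow, 258 RPM for the lowest transgenic against 251 RPM for the highest wild-type female, both of lane 4. The means were 300.9 ± 61.0 and 233 ± 14.9 RPM (SD, n = 4). On the log2 scale the difference was 0.34 ± 0.15 (SE; 95% interval 0.01 to 0.68; limma p = 0.0426, Benjamini-Hochberg adjusted p = 0.726). Lane by lane it was 0.84, 0.34, 0.16 and 0.04 on the log2 scale. Leaving out the transgenic female of lane 1 brought it to 0.21 (limma p = 0.125).

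The other 7 members had intervals that spanned 0. Mdm4 averaged 1999.7 ± 548.5 RPM over transgenic females and 2109 ± 582 RPM over wild-type females, a log2 difference of -0.07 with a 95% interval of -0.58 to 0.43. Chek1, the most precisely measured, stood at 1449 ± 164 and 1483 ± 65.3 RPM, a difference of -0.04 with an interval of -0.32 to 0.23. Differences beyond those bounds in either direction lie outside the interval, while smaller ones were not detectable with 4 females a group. Trp53 differed by 0.03 (-0.27 to 0.34) and Trp73 by -0.11 (-0.61 to 0.39) on the log2 scale. Atr stood at 15.1 ± 3.02 and 12.8 ± 1.26 RPM, a difference of 0.21 (-0.24 to 0.67), and was higher in the transgenic female in 3 of 4 lanes. It was 0.123 without the transgenic female of lane 1 and 0.374 without that of lane 2. Atm and Chek2, with few reads, had the widest intervals, at -0.64 to 0.65 and -0.61 to 0.67 around 0.01 and 0.03. Limma's Benjamini-Hochberg adjusted p of these 7 lay between 0.838 and 0.996.

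**Figure D3:**
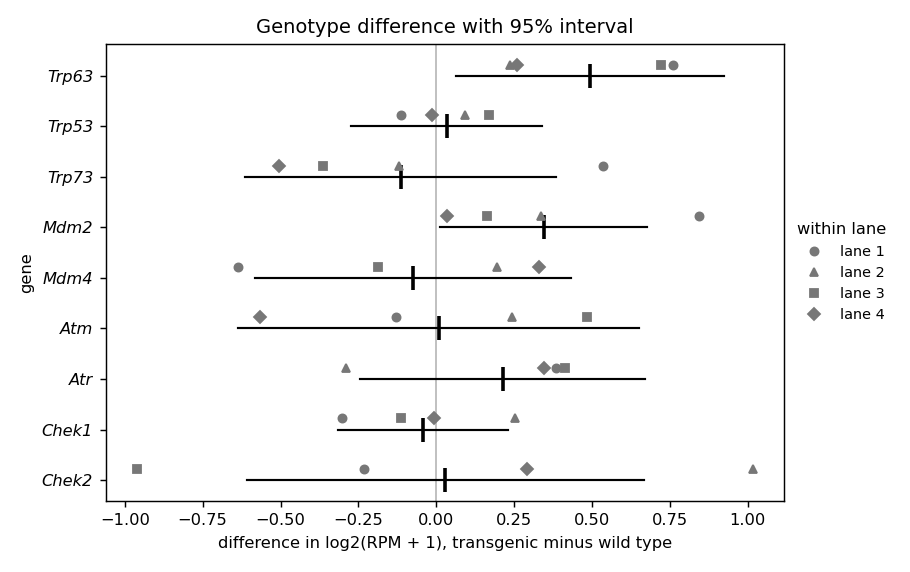
Log2 difference between transgenic and wild-type females (log2(RPM + 1), n = 4 per genotype) for each gene (upright tick) with its 95% interval from limma (line), and the difference within each of the 4 lanes as grey symbols. Trp63 (0.49) and Mdm2 (0.34) lie above 0 in all 4 lanes, and the other 7 intervals span 0.

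The members differed in how even they were between oocytes. Chek1 had the lowest SD between sister oocytes, 0.15 on the log2 scale, with 0.13 between females, and 16.7% of 66 genes of like level had a smaller SD between sisters. Trp53 (0.21, with 0.11 between females) and Trp73 (0.35) were also on the even side of genes of like level, of which 16.2% and 13.3% had a smaller SD. Trp63 (0.36), Atr (0.45) and Atm (0.50) were ordinary, with 51.2%, 56.4% and 40.4% of like genes below them. Mdm4 varied more between females (0.43) than between sisters (0.26), while Chek2 had an SD of 0.59 between sisters, where 39.3% of genes of like level had a smaller one.

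Across the 21 oocytes, taken about their genotype means, the 36 pairs of members had Pearson's r between -0.498 and 0.599 with a median of -0.016. The highest was Mdm4 with Chek1 at 0.599 (Spearman's rho 0.468), which was 0.776 within females and 0.375 without oocyte C of the transgenic female of lane 1. The lowest was Mdm2 with Mdm4 at -0.498 (rho -0.321), which was -0.445 within females and -0.318 without that oocyte. Trp63 and Mdm2, both with estimates above 0 in all lanes, had an r of 0.18. Oocytes share a female, a lane and a normalisation, so these are descriptions of the 21 libraries.

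Both inhibitors moved with a property of the library, the share of its reads that lay in listed genes. Its median was 93.3% over transgenic oocytes and 92.2% over wild-type oocytes, and it was 94.8% in oocyte C of the transgenic female of lane 1. Over 21 oocytes it had an r of 0.733 with Mdm2, 0.511 with Trp63 and -0.738 with Mdm4. Over all genes tested, the 5th and 95th percentiles of that r were -0.774 and 0.606, and 1.44% of genes had an r as high as Mdm2. For Mdm2 the r was 0.876 within the transgenic oocytes, 0.214 within the wild-type oocytes and 0.554 without the transgenic female of lane 1. For Mdm4 it was -0.726 and -0.885 within the genotypes, and Mdm4 had an r of -0.73 with the log2 of the library total. The part of this share in the Mdm2 and Trp63 differences between genotypes was not tested.

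**Figure D4:**
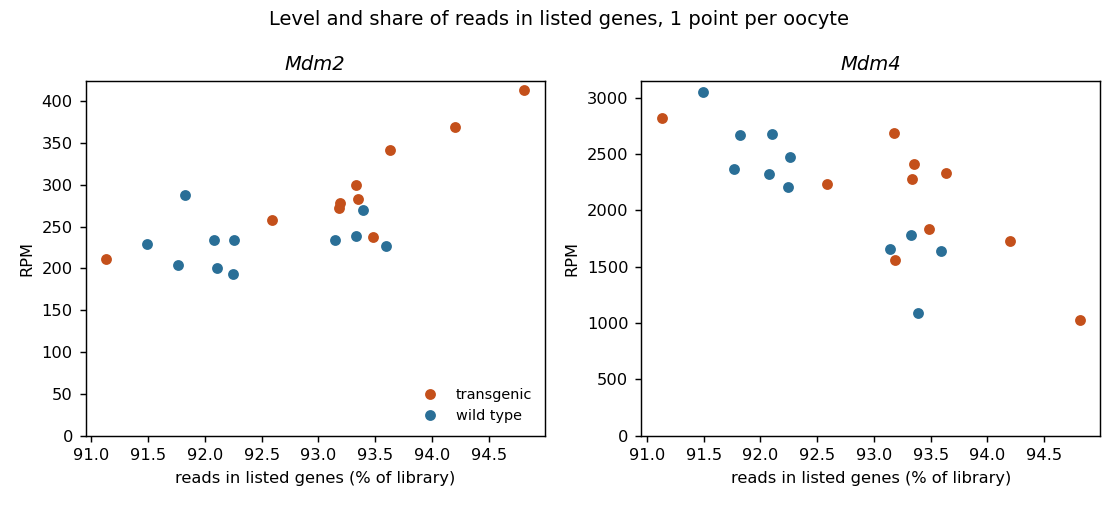
Mdm2 and Mdm4 in RPM against the percent of a library's reads in listed genes; each point is 1 of 21 oocytes, orange for transgenic and blue for wild type. Mdm2 is highest and Mdm4 lowest in the library with the highest share, 94.8%, and r over the 21 oocytes is 0.733 for Mdm2 and -0.738 for Mdm4.

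Among the 6020 genes that averaged 10 RPM or more, those whose pattern over the 21 oocytes was most like that of Trp63 were Gga3 (r = 0.689), Tmem38b (0.652), Tspan33 (0.635), Ptcd1 (0.625) and Dhx16 (0.624), where the 95th percentile of all genes was 0.384. Those most like Mdm2 were Stk3 (0.786), Rfwd2 (0.764), Ghitm (0.752), Psmd1 (0.751) and Pdk3 (0.749), against a 95th percentile of 0.517. Rfwd2 is the ubiquitin ligase COP1, which like MDM2 is known to act on p53. Mdm2 had an r of 0.733 with the share of reads in listed genes, and the part of that share in these likenesses was not tested.

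The regulators of p53 and p63 were mostly well stocked. Of 25 listed, 22 were tested, and 16 had estimates above 0 and 6 below, beside 47.8% and 52.2% of all genes. None had an unadjusted p under 0.05, beside 6.81% of all genes. The median log2 difference was 0.04 beside -0.01 over all genes. The most abundant were Csnk1e, a casein kinase 1 of the kind that completes TAp63 activation, at 1112 ± 154 RPM over transgenic females and 1089 ± 107 RPM over wild-type females, Usp7, the deubiquitinase of MDM2 and p53, at 549.6 ± 83.5 and 527 ± 35.2 RPM, and the p53 ubiquitin ligase Rchy1 at 537 ± 33.5 and 526 ± 13.7 RPM. The smallest limma p were those of Ppp1r13l (iASPP, an inhibitor of p53) at a log2 difference of 0.38 ± 0.26 (SE), Csnk1a1 at 0.16 ± 0.14, the acetyltransferase Kat5 at -0.25 ± 0.27, the p53 kinase Hipk2 at 0.20 ± 0.22 and the deubiquitinase Usp10 at 0.18 ± 0.21. Their Benjamini-Hochberg adjusted p in limma ran from 0.781 to 0.855. Single females carried much of these values. Without the transgenic female of lane 1, Hipk2 stood at 0.0799, Usp10 at 0.0469, Ppp1r13l at 0.244 and Csnk1a1 at 0.104, and without that of lane 2, Hipk2 stood at 0.431 and Usp10 at 0.278. Without the wild-type female of lane 4, Usp10 stood at 0.00901 and Csnk1a1 at 0.0757. Without that of lane 2, Usp10 stood at 0.305 and Kat5 at -0.0596, and Kat5 stood at -0.476 with the wild-type female of lane 1 left out and at -0.152 with the transgenic female of lane 3 left out. Without the transgenic female of lane 4, Hipk2 stood at 0.121.

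Of 30 listed, 29 were in the table, and 20 averaged 1 RPM or more. Of the death genes that p63 is known to activate, Bbc3 (PUMA) had no read in any of the 21 oocytes, at 13.4 RPM in the control RNA, and Pmaip1 (NOXA) had reads in 11 of them, at most 3.02 RPM. Other death genes of the list were uneven. Bax, Apaf1, the scaffold of the apoptosome, and Bid, which acts on Bax, had reads in every oocyte. They averaged 17.4, 16.7 and 13.4 RPM. Fas had no read in 12 of the 21 oocytes and at most 2.40 RPM. Like Bbc3, Eda2r, Phlda3 and Rprm had no read in any oocyte, of which Phlda3 stood at 56.6 and Rprm at 41.8 RPM in the control RNA. The 3 most abundant targets were Rrm2b, Ddb2 and Trp53inp1. Rrm2b, a ribonucleotide reductase subunit, stood at 245 ± 49.8 and 268 ± 49.98 RPM in transgenic and wild-type females, Ddb2, a sensor of ultraviolet lesions, at 150.2 ± 16.9 and 137 ± 10.4 RPM, and the p53 cofactor Trp53inp1 at 134 ± 29.4 and 109 ± 11.0 RPM.

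No target passed the test between genotypes. Of the 20 tested, 10 had estimates above 0 and 10 below, beside 47.8% and 52.2% of all genes. Their median was 0.00 on the log2 scale. In each direction 2 had an unadjusted p under 0.05, where 2.78% of all genes did in the higher and 4.03% in the lower direction. Sesn2, a stress-induced inhibitor of mTORC1, averaged 4.93 ± 1.37 RPM over transgenic females and 2.80 ± 1.09 RPM over wild-type females, a log2 difference of 0.93 ± 0.26 (limma p = 0.00371, Benjamini-Hochberg adjusted p = 0.724). Cdkn1a, the p21 inhibitor of cyclin-dependent kinases, stood at 3.41 ± 0.827 and 5.60 ± 1.24 RPM, a difference of -0.65 ± 0.24 (limma p = 0.0181, Benjamini-Hochberg adjusted p = 0.724). In both genes the female means of the genotypes did not overlap, as for 1.67% of all genes with the transgenic females higher and 2.64% with them lower. These low values depend on the pseudocount: from 5 to 0.1 RPM the difference went from 0.408 to 1.40 for Sesn2, from -0.34 to -0.836 for Cdkn1a and from 0.358 to 1.24 for Plk2. Plk2, a polo-like kinase, differed by 0.80 ± 0.31 and Btg2, an antiproliferative factor, by -0.45 ± 0.20, with overlapping females, and Bax, the mitochondrial pore protein, by -0.46 ± 0.29, which moved to -0.757 when the wild-type female of lane 4 was left out (limma p = 0.0033, Benjamini-Hochberg adjusted p = 0.373).

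The sensors, mediators and partners of the kinases gave 28 tested genes of 32 listed, with a median of -0.03 on the log2 scale. Estimates were above 0 for 12 and below for 16, beside 47.8% and 52.2% of all genes. An unadjusted p under 0.05 was reached by 1 gene on the higher side, Timeless, and 2 on the lower side, Rpa2 and Rad9b, beside 2.78% and 4.03% of all genes. Timeless, the fork protection partner of Tipin, stood at 292 ± 25.1 against 236 ± 30.1 RPM, differing by 0.33 ± 0.14 on the log2 scale, and its females did not overlap between genotypes, as for 1.67% of all genes in that direction. Its partner Tipin stood at 353 ± 46.3 and 376 ± 5.12 RPM, a difference of -0.11 ± 0.13, which was -0.045 without the transgenic female of lane 1 and -0.204 without that of lane 2. Rpa2, which coats the single-stranded DNA that ATR reads, stood at 6.49 ± 0.745 and 10.7 ± 2.04 RPM (-0.57 ± 0.23), and Rad9b, a clamp subunit of the ATR pathway, at 20.8 ± 5.05 and 29.1 ± 4.22 RPM (-0.49 ± 0.20). Next by p were Hus1, another clamp subunit, at 0.33 ± 0.18, and Brca1 at 0.25 ± 0.15. Trp53bp1, a break mediator, stood at 396 ± 130.9 and 335 ± 57.9 RPM, and Rad50, of the complex that activates ATM, at 277 ± 34.6 and 311 ± 38.6 RPM. The lowest limma adjusted p of the list, by Benjamini-Hochberg, was 0.724.

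All 16 cell cycle targets of the checkpoint kinases were tested, 9 with estimates above 0 and 7 below, beside 47.8% and 52.2% of all genes. Their median was 0.01 on the log2 scale, and none had an unadjusted p under 0.05, beside 6.81% of all genes. The list takes in Cdk1, its cyclins and its inhibitory kinases. Ccnb1 (cyclin B1) stood at 1442 ± 208 and 1372 ± 171 RPM, and Wee2, the oocyte's inhibitory kinase of CDK1, at 951 ± 95.6 and 842 ± 69.1 RPM. Ywhae, a 14-3-3 protein that binds phosphorylated CDC25, stood at 701 ± 46.8 and 818 ± 175 RPM. Plk1 differed by 0.28 ± 0.15, Ccna2 (cyclin A2) by 0.22 ± 0.16 and Ywhah by -0.39 ± 0.26 on the log2 scale, with limma Benjamini-Hochberg adjusted p of 0.76 to 0.797. Without the transgenic female of lane 1, Plk1 stood at 0.173 and Ccna2 at 0.0835, and Ywhah stood at -0.613 without the wild-type female of lane 4 and -0.256 without that of lane 3.

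**Figure D5:**
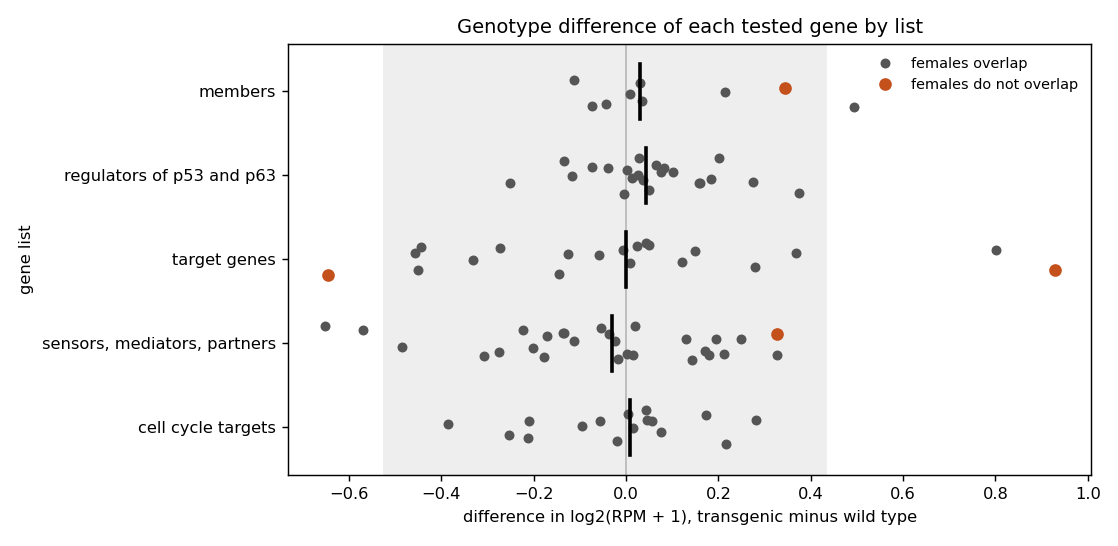
Log2 difference between transgenic and wild-type females for each tested gene of the 4 lists and the 9 members, 1 point a gene, orange where the female means of the genotypes do not overlap; black bars are list medians and the shaded band runs from the 5th to the 95th percentile of all genes tested (-0.52 to 0.43). List medians lie between -0.03 and 0.04, and Sesn2 (0.93) and Cdkn1a (-0.65) lie outside the band on opposite sides.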

How the data were processed

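The labels list 24 samples, and the values used are those of 21 oocytes and 1 control RNA; transgenic oocyte A of lane 1 and the water library are not analysed here. Per the labels' protocols, complementary DNA was amplified with SMART-Seq v4 and sequencing libraries were built with ThruPLEX. Per the submitters' processing notes, the tools were HISAT2, FastQC and Trim Galore (no versions) and the builds mm39 and GRCm39; for the counting tool, none is given in the sources used here. Coordinates in the table are those of GRCm38: of 25035 IDs found in GENCODE M21, 99.7% overlapped the M21 gene. The authors deposited log2 values, described as RPKM but not divided by gene length, so they are read here as log2 RPM. An entry without reads holds the value of 0.9 reads. Whole reads were recovered from these steps: 100% of the 256336 nonzero values below 2000 reads were whole to within 0.02.

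Values were log2(RPM + 1), which understates differences of genes with few reads, averaged over the oocytes of a female. Genes averaging 1 RPM or more in the oocytes (10987) entered limma 3.58.1 under R 4.3.3 (lmFit and eBayes, trend on), two-sided, with Benjamini-Hochberg adjustment over all of them and a threshold of 0.05. Reads summed per female were tried with limma voom as an alternative. Lengths are merged exons of GENCODE M21. The labels name females but not their litters, so p-values measure the spread between these females. Females are paired by lane, as the labels put a transgenic and a wild-type female on every lane. Across genes, the deviations of the pair from their genotype means had an r of -0.0403 in lane 1, 0.0835 in lane 2, 0.342 in lane 3 and 0.317 in lane 4. Marker sums were tested by exact permutation, two-sided, with all 70 arrangements of the 8 females. Python 3.11.15, numpy 2.4.6, pandas 2.3.3, scipy 1.17.1 and matplotlib 3.10.9 were used.

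The members and lists were chosen with earlier results of these data known. Named are all members and, of each list, up to 5 genes with the smallest limma p and up to 3 with the highest mean. Genes named for having no reads, Pmaip1, Apaf1, Bid and Fas were chosen after their values were seen. Genes most like Trp63 and Mdm2 are the 5 with the highest r, predicted genes (Gm numbers, Rik symbols, -ps) left out. Pidd1 and Rad9a matched no entry of the table.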

Additional observations from a re-analysis of the deposited data

Results flagged for a closer look

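Values that stood apart from the rest of their group were looked for on the log2(RPM + 1) scale in 87 groups. These were 78 groups of 4 females and 9 groups of the 10 transgenic oocytes. The 11 wild-type oocytes were not screened in this way. In 6 of them the gap of the lowest or the highest sample to its neighbour, divided by the range of the group on that scale, passed Dixon's 95% critical value. Chance flags about 1 in 20 groups. Chek1 was lowest in oocyte C of the transgenic female of lane 1, at 1010.35 RPM, with a ratio of 0.564 among the transgenic oocytes. Bax was lowest in the wild-type female of lane 4, at 9.46 RPM, with a ratio of 0.845, and without that female its log2 difference between genotypes was -0.757 in place of -0.46. Hus1 was lowest in the transgenic female of lane 2, at 108 RPM, with a ratio of 0.845. The 3 others were highest: Rchy1 in the transgenic female of lane 2, at 586 RPM (0.85), Tipin in the wild-type female of lane 1, at 384 RPM (0.862), and Trp53inp1 in the wild-type female of lane 3, at 125 RPM (0.853).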

How the results depend on the processing

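The count of 0 genes called was 12 when oocytes were fitted singly (female random, lane as replicate block), and 0 to 1 when each female was left out in turn, the 1 without the transgenic female of lane 1. With the lane as replicate block alone it was 0, with a smallest limma Benjamini-Hochberg adjusted p of 0.447 and 1028 genes at an unadjusted p under 0.05, against 748 without it; none of the 9 members and 30 listed genes named by rule passed the threshold under any of the 18 alternatives that gave them a value. Log2 differences of Trp63 stayed between 0.409 and 0.624, of Mdm2 between 0.21 and 0.411 and of Atr between 0.12 and 0.374 over all alternatives that gave a value. Signs turned for genes near 0. Female medians gave -0.0326 for Trp53. A pseudocount of 0.1 gave -0.000374 for Atm and 0.492 for Chek2, and one of 5 gave -0.0113 for Chek2. Voom on reads summed per female gave -0.00682 for Atm and -0.0444 for Chek2. Without oocyte C of the transgenic female of lane 1, an alternative chosen after seeing the data, Mdm4 stood at 0.0195, Chek1 at 0.0292 and Csnk1e at -0.0116. Leaving out each female gave -0.00072 to 0.0845 for Trp53, -0.275 to 0.0132 for Trp73, -0.27 to 0.101 for Mdm4, -0.185 to 0.252 for Atm, -0.111 to 0.0291 for Chek1, -0.146 to 0.236 for Chek2, -0.0519 to 0.0889 for Csnk1e, -0.0456 to 0.14 for Usp7, -0.0181 to 0.0436 for Rchy1 and -0.0345 to 0.143 for Ccnb1, and -3.82 to 0.0416 RPM for the cumulus marker sum; the causes were not tested. Trp73, Atm and Chek2 gave no value with a filter at a mean of 10 RPM. Levels under 0.0900 to 0.147 RPM, 3 reads, were not detectable at this depth.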

Other observations

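Related genes among the partners of the members were held at unequal levels. Among casein kinases that act on p53 family proteins, Csnk1e stood at a mean of 1083 RPM over the oocytes Csnk1a1 at 288 RPM and Csnk1d at 5.10 RPM. Among the inhibitory kinases of CDK1, Wee2 stood at 885 RPM, Pkmyt1 at 69.5 RPM and Wee1 at 1.55 RPM. Cdkn2a, whose ARF product inhibits MDM2, and Hus1b, a relative of Hus1, had no reads in any of the 21 oocytes. Clspn (claspin), the adaptor through which ATR activates CHK1, stood at 227 RPM. These genes were chosen after their values were seen, and no comparison was made between genes on the RPM scale beyond these values.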
